A study of Daphnia sinensis with 8 samples.

Results

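In *Daphnia sinensis*, 3 unigenes that encode enzymes of chitin turnover were followed, namely chitin synthase 2 (Cluster-5789.11830), chitinase 5 (Cluster-5789.5191) and chitinase 8 (Cluster-5789.7417). They are 3 of the 11114 unigenes listed in every library, and all 3 were among the 10822 unigenes that passed the filter on low counts. The names are the best database matches that the study gives them among its male-biased candidates. None of the unigene IDs matched the reference gene table of *D. sinensis*. In the same 8 libraries, the study first took the genes most up-regulated in any of the 3 comparisons of males with a female stage. From these it kept the genes that qPCR put higher in males than in each female stage. The levels in males and the 3 comparisons with males are therefore given as a description without a test.

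The transcriptome was sequenced from whole animals in 4 life-history stages of a water flea from Lake Chaohu, with 2 libraries per stage, each made from poly-A RNA of a pool of individuals. Males (M) were pools of about 60 animals that had been collected as juveniles and kept apart. Sexual females (SF) were pools of about 50 animals carrying resting eggs. Parthenogenetic females (PF) were pools of about 50 animals carrying their first eggs. The labels give all 3 adult stages an age of 2 to 3 weeks, while the methods define a male as an animal within 12 h of birth and also state that male juveniles were cultured before sampling. Juvenile females (JF) were pools of about 500 newborns taken within 12 h of birth. For JF the mothers were kept one to a beaker, in another experiment than that of the adult stages, whose mothers shared beakers. Culture and stage therefore cannot be told apart in the comparisons with JF. The same holds for M vs PF and M vs SF, since male juveniles were moved to another beaker before sampling. The stock culture was fed a green alga. In whole animals, fewer cells of a type and less RNA per cell cannot be told apart, and the adult females carried eggs. The total estimated count was between 17172891 and 27160267 per library. Nothing in the labels says that the pools of a stage came from separate cultures, so p-values measure only the spread between these pools, which may be technical. No markers of other tissues are annotated in the tables used here, and the identity of the males could be checked only with Doublesex2, itself chosen as male-biased, which had 228 and 221 CPM in M and at most 5.90 CPM in any female library.

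Chitin is a polymer of N-acetylglucosamine that stiffens the arthropod exoskeleton and, in many arthropods, lines the gut as part of the peritrophic matrix. Chitin synthases build the chain at the cell membrane, and chitinases cut it into short pieces, so that at each moult an old cuticle is digested while a new one is laid down. Water fleas go on moulting as adults, and in females each moult is tied to the release of a brood or of the case that holds resting eggs. In insects, chitin synthase 2 mainly supplies the peritrophic matrix of the midgut and chitinase 5 is known for digesting cuticle at the moult. Whether the unigenes with these names have the same roles in *D. sinensis* was not tested.

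The sequences that identify these unigenes here are the primers with which the study measured them by qPCR. The levels given below are counts per unigene and not of the stretch between primers, whose place in the unigene was not determined. All letters are in lower case, since no part of a primer is singled out, and each primer is written 5′ to 3′.
chitin synthase 2 forward: ctccatcgcttcctgtta
chitin synthase 2 reverse: gcatcgttcgttcatcaa
chitinase 5 forward: atccgttatcttcttactcgta
chitinase 5 reverse: atcatcatagccaatccattg
chitinase 8 forward: aggatcagcgtagtaagc
chitinase 8 reverse: catcagcatcaaccacag
The primers are 18 to 22 bases long, and the chitinase 5 pair has the lowest GC content, with 36.4% and 38.1% against 44.4% to 50% in the others. Between the primers of any pair of these genes, the longest run of bases shared on either strand was 6. This compares the primers only and not the transcripts. Chitinases form a gene family whose reads the counting may have split between members. The estimated count of chitin synthase 2 was a whole number (to within 1e-06) in 6 of the 8 libraries, but that of each chitinase in only 2 of 8. Over all listed unigenes, 36.2% to 43.2% of the values in a library were not whole. A fraction does not show how many reads were split or with which unigenes.

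Expression is given as counts per 1000000 counts (CPM) after scaling of the libraries by edgeR's TMM method. In the absence of unigene lengths, levels are compared between libraries and never between genes. Chitin synthase 2, which makes the polymer, had 519.8 and 520.4 CPM in M, 388 and 140 CPM in SF, 6.79 and 7.30 CPM in PF, and 66.8 and 58.4 CPM in JF. The stages did not overlap, and the order was M, SF, JF and PF from high to low. Its mean was 520 ± 0.469 CPM in M, 264 ± 176 CPM in SF, 7.05 ± 0.365 CPM in PF and 62.6 ± 5.95 CPM in JF (SD, n = 2 libraries each). The spread was thus narrow in every stage except SF.

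Chitinase 5 had 1147 and 1140 CPM in M, 538 and 96.3 CPM in SF, 16.1 and 12.9 CPM in PF, and 207 and 173 CPM in JF. Both M libraries lay above and both PF libraries below all the others. The 2 SF libraries enclosed those of JF, so SF and JF overlapped. Chitinase 8 had 1028 and 997 CPM in M, 705 and 252 CPM in SF, 11.6 and 8.71 CPM in PF, and 52.6 and 51.7 CPM in JF. As for chitin synthase 2, the stages did not overlap and followed the order M, SF, JF and PF. This order without overlap was found for 2.17% of the tested unigenes.

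**Figure D1:**
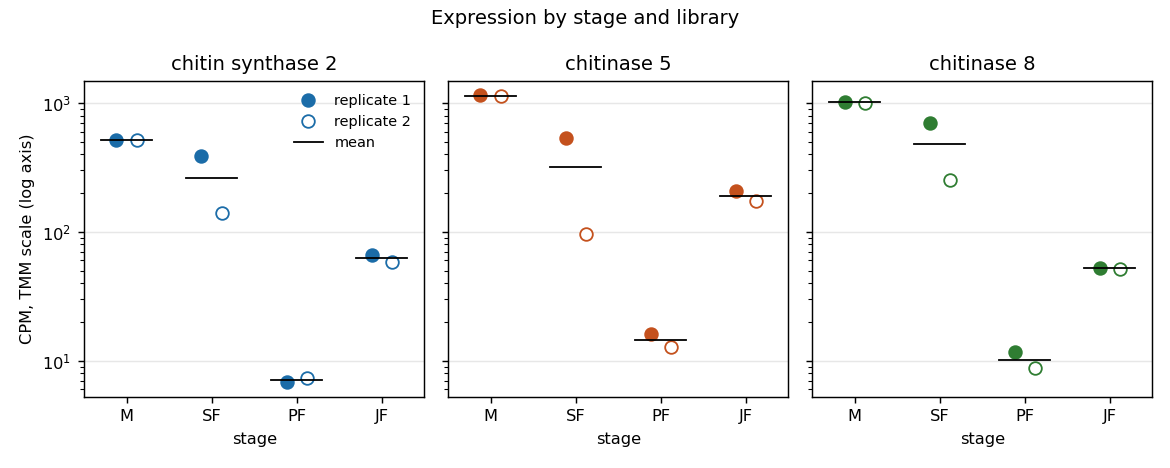
Expression of the 3 chitin genes in each library, in CPM on a log axis, by stage (M male, SF sexual female, PF parthenogenetic female, JF juvenile female). Filled and open circles are replicates 1 and 2 and the line is their mean. PF is lowest throughout (6.79 to 16.1 CPM), and the 2 SF libraries lie far apart.

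The lowest values still rested on more than 100 reads. Chitin synthase 2 had an estimated count of 167 and 135 in PF, which gives exact (Clopper-Pearson) 95% intervals of 5.80 to 7.90 and 6.12 to 8.65 CPM. These intervals cover counting error only. The 2 PF libraries of this gene therefore did not differ beyond counting error. The 2 SF libraries did, with intervals of 380 to 397 CPM in replicate 1 and 135 to 145 CPM in replicate 2. From the lowest to the highest of the 8 libraries, expression spanned 76.7-fold for chitin synthase 2, 89.1-fold for chitinase 5 and 118-fold for chitinase 8.

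The comparisons with males, which chose these genes, gave log2 fold changes in a single edgeR fit of all 8 libraries. In M vs PF they were 6.21 for chitin synthase 2 (standard error 0.55), 6.30 for chitinase 5 (standard error 0.90) and 6.63 for chitinase 8 (standard error 0.57). In M vs JF they were 3.06, 2.59 and 4.28, with standard errors of 0.47, 0.75 and 0.51. In M vs SF they were 0.98, 1.85 and 1.08, with standard errors of 0.44, 0.73 and 0.45. For all 3 genes each male library exceeded all 6 female libraries, a pattern that 14.5% of the tested unigenes shared. The difference from SF depended on the SF library. The male mean was 1.34 times SF replicate 1 and 3.73 times SF replicate 2 for chitin synthase 2. For chitinase 8 these ratios were 1.44 and 4.01, and for chitinase 5 they were 2.12 and 11.9. With SF replicate 1 left out, M vs SF gave log2 fold changes of 1.89, 3.57 and 2.00 for chitin synthase 2, chitinase 5 and chitinase 8, and without SF replicate 2 they were 0.47, 1.13 and 0.57.

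The female stages were compared with each other by the quasi-likelihood test of edgeR, and p-values were adjusted after Benjamini and Hochberg over all tested unigenes. A call required an adjusted p under 0.05 together with a log2 fold change above 1 in size, the limits that the methods of the study also set. These comparisons are not the ones that chose the genes, but the same female libraries took part in the choice, and a gene that is low in PF ranks high in M vs PF. The results are therefore not fully independent of it. In SF vs PF, all 3 genes rose, where 9.98% of the tested unigenes were called up-regulated and 4.84% down-regulated. In PF vs JF, all 3 fell, where 21.6% of the tested unigenes were called down-regulated and 17.2% up-regulated. In SF vs JF, chitin synthase 2 and chitinase 8 rose and chitinase 5 was not called, where 19.0% of the tested unigenes were called up-regulated and 18.6% down-regulated. All 3 comparisons share libraries pairwise.

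In SF vs PF, both SF libraries were far above both PF libraries for each gene. The share of all tested unigenes with such a separation was not counted. The log2 fold change of chitin synthase 2 was 5.23 (standard error 0.52, edgeR adjusted p = 0.00195), and the lower SF library was 19.1 times the higher PF library. Chitinase 8 had the value 5.55 (standard error 0.54, edgeR adjusted p = 0.00185), and the nearest libraries were 21.7-fold apart. Chitinase 5 had 4.45 (standard error 0.82, edgeR adjusted p = 0.0139), and its nearest libraries were 5.97-fold apart. Without SF replicate 1 the log2 fold changes were 4.36, 4.68 and 2.78 for chitin synthase 2, chitinase 8 and chitinase 5, and chitinase 5 had 5.22 without SF replicate 2. The call of chitinase 5 was lost without PF replicate 1 (edgeR adjusted p = 0.0512), without PF replicate 2 (edgeR adjusted p = 0.0628) and in a fit of the 4 compared libraries alone (edgeR adjusted p = 0.0875).

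In PF vs JF, parthenogenetic females, the adult stage with first eggs, had less of each transcript than newborn females. The log2 fold change was -3.15 for chitin synthase 2 (standard error 0.48, edgeR adjusted p = 0.00202). For chitinase 5 it was -3.71 (standard error 0.80, edgeR adjusted p = 0.00903), and for chitinase 8 it was -2.36 (standard error 0.47, edgeR adjusted p = 0.00639). Each PF library was below each JF library, but the share of all tested unigenes with such a separation was not counted. The calls held under every alternative that was run, with values from -3.84 to -2.16 when single libraries were left out.

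In SF vs JF the 3 genes differed among themselves. Chitinase 8 was 9.18-fold higher in SF (log2 fold change 3.20, standard error 0.48, edgeR adjusted p = 0.00217), with a log2 value of 2.40 without SF replicate 1 and 3.83 without SF replicate 2. Chitin synthase 2 was 4.22-fold higher in SF (log2 fold change 2.08, standard error 0.45, edgeR adjusted p = 0.00874). Its value was 1.28 without SF replicate 1 and 2.71 without SF replicate 2, and its call was lost without JF replicate 2 (edgeR adjusted p = 0.0571). For chitinase 5 the log2 fold change was only 0.74, close to its standard error of 0.71 (edgeR adjusted p = 0.407). SF replicate 1 was 2.83 times the JF mean and SF replicate 2 only 0.506 of it. The direction for chitinase 5 thus rested on the SF library, with a log2 fold change of -0.86 without SF replicate 1 and 1.58 without SF replicate 2.

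The 3 genes varied together between the replicate libraries of SF and hardly at all between those of M. SF replicate 1 exceeded SF replicate 2 by 2.78-fold for chitin synthase 2, 2.79-fold for chitinase 8 and 5.59-fold for chitinase 5. On the log2 scale with a pseudocount of 0.5 CPM these ratios are 1.47, 1.48 and 2.48, and 97.8%, 97.9% and 99.2% of the tested unigenes had a lower ratio. Only 4.52% of the tested unigenes were at least 2-fold higher in SF replicate 1. The scaled median absolute deviation of the ratio, an estimate of a standard deviation, was 0.33 over all tested unigenes in SF. The SF libraries were close in depth, with total counts of 22523969 and 20204902. The gap in each gene was many times its counting error of at most 0.035 on the log2 scale.

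In M, replicate 1 was 0.999 times replicate 2 for chitin synthase 2, 1.01 times for chitinase 5 and 1.03 times for chitinase 8. In PF these ratios were 0.929, 1.25 and 1.33, and in JF they were 1.14, 1.20 and 1.02. The ratios in PF and JF lay between 41.1% and 85.2% of the way up the tested unigenes, so outside SF none of the genes stood out between replicates. A single pair of libraries per stage gives no replicate of this difference, and it was not tested.

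**Figure D2:**
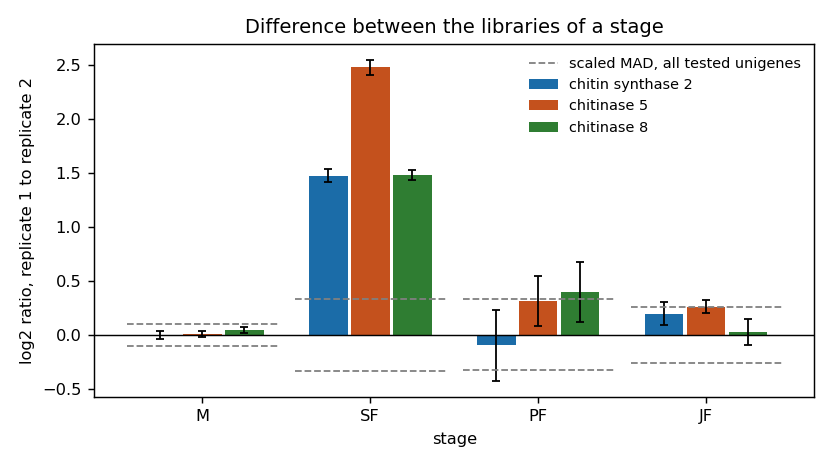
Log2 ratio of replicate 1 to replicate 2 in each stage for the 3 chitin genes, in CPM with 0.5 added. Error bars are 95% counting intervals and dashed lines mark plus and minus the scaled median absolute deviation (MAD) of all tested unigenes. The SF bars (1.47, 2.48 and 1.48) stand far above the dashed line at 0.33.

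The ratios between the genes within a library show how closely they moved. Set to 1 at the mean of the males, the ratio of chitinase 8 to chitin synthase 2 was 0.933 and 0.928 in SF. The 2 SF libraries thus had nearly the same ratio although both genes differed 2.8-fold between them. In PF the ratio was 0.855 and 0.607, and in JF it was 0.406 and 0.456. Newborn females therefore had less chitinase 8 for their chitin synthase 2 than any adult library.

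Chitinase 5 departed from this. Its ratio to chitin synthase 2, again relative to males, was 0.631 and 0.315 in SF, 1.04 and 0.780 in PF, and 1.41 and 1.34 in JF. It was lowest in the SF library where all 3 genes were lower, and highest in JF. The ratio of chitinase 8 to chitinase 5 was 1.48 and 2.95 in SF against 0.289 and 0.340 in JF. The 2 chitinases, enzymes of the same family, were thus weighted in opposite ways in sexual and newborn females. These differences between genes were not tested.

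**Figure D3:**
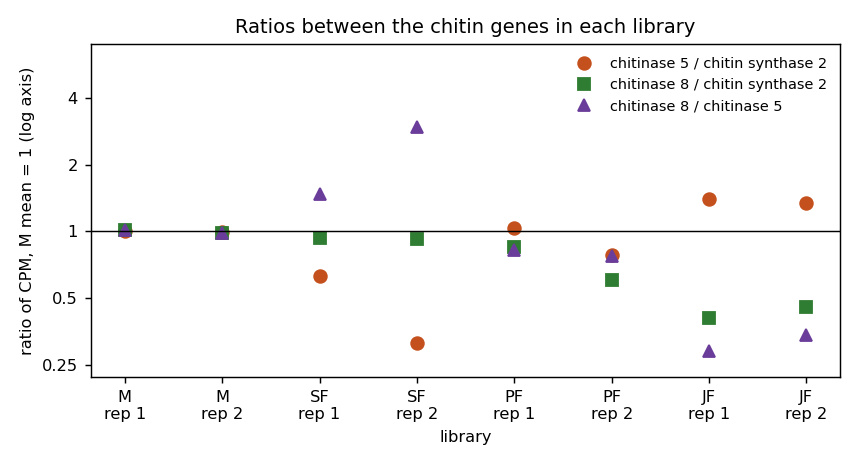
Ratios of CPM between the chitin genes in each library, with the mean of M set to 1, on a log axis. Circles are chitinase 5 to chitin synthase 2, squares are chitinase 8 to chitin synthase 2 and triangles are chitinase 8 to chitinase 5. The squares stay near 1 in M and SF (0.928 to 1.02) and fall to 0.406 and 0.456 in JF.

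Likeness to the chitin genes was measured over the 8 libraries as the root mean square (RMS) difference between log2(CPM + 0.5) profiles, each centred on its own mean. The libraries share their stage and their scaling, so likeness is a description and carries no p. Chitinase 8 differed from chitin synthase 2 by 0.50 and ranked 22 among the 10821 other unigenes. Chitinase 5 differed from chitin synthase 2 by 0.65 and ranked 50. The 2 chitinases differed from each other by 1.01, more than either did from the synthase. In turn, chitin synthase 2 ranked 10 for chitinase 5 and 19 for chitinase 8. Chitin synthase 2 was also nearest to the mean profile of the 3 genes, with an RMS difference of 0.19, against 0.48 for chitinase 8 and 0.54 for chitinase 5. Beyond the 3 genes themselves, 21 unigenes lay within 0.5 of chitin synthase 2, 18 within 0.5 of chitinase 8 and 3 within 0.5 of chitinase 5. Chitin synthase 2 and chitinase 8 shared 9 of them, 42.9% of the 21 and 50% of the 18, while the 2 chitinases shared 0.

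Within 0.5 log2 of the mean profile of the 3 genes were 12 further unigenes, against 24 without SF replicate 2 and 21 without JF replicate 2. The nearest was another candidate of the study, the serine protease ami-like gene (Cluster-5789.2039), whose name marks it as a peptidase, at an RMS difference of 0.24. It had 522 and 517 CPM in M, 404 and 116 CPM in SF, 5.53 and 4.44 CPM in PF, and 64.6 and 63.3 CPM in JF. Like chitin synthase 2, it was highest in males, apart in the 2 SF libraries and lowest in PF. The other named candidate was the uncharacterized protein APZ42_017126 (Cluster-5789.6490), at an RMS difference of 0.44. It had 1639 and 1655 CPM in M, 1712 and 551 CPM in SF, 46.9 and 41.6 CPM in PF, and 363 and 320 CPM in JF. In this gene SF replicate 1 was above both M libraries.

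The other 10 unigenes have no name in the files. The 2 nearest of them were Cluster-5789.11794, at 0.27, and Cluster-5789.11836, at 0.28. Cluster-5789.11794 had 485 and 480 CPM in M, 308 and 133 CPM in SF, 7.60 and 4.06 CPM in PF, and 55.0 and 42.7 CPM in JF. Cluster-5789.11836 was less abundant, with 134 and 138 CPM in M, 69.6 and 26.1 CPM in SF, 0.691 and 0.812 CPM in PF, and 12.5 and 7.52 CPM in JF. All 12 unigenes were higher in SF replicate 1 than in SF replicate 2, by 0.53 to 1.79 on the log2 scale, which is part of how they were chosen. Their mean over the 8 libraries was between 48.5 and 962 CPM. At the other end, Cluster-5789.4224 and Cluster-5789.4226 had the profiles farthest from the chitin genes, with RMS differences of 5.73 and 5.57. Cluster-5789.4226 had 0.519 and 0.844 CPM in M, 585 and 546 CPM in SF, 742 and 490 CPM in PF, and 87.3 and 80.1 CPM in JF, and was thus lowest in males and highest in the adult females.

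**Figure D4:**
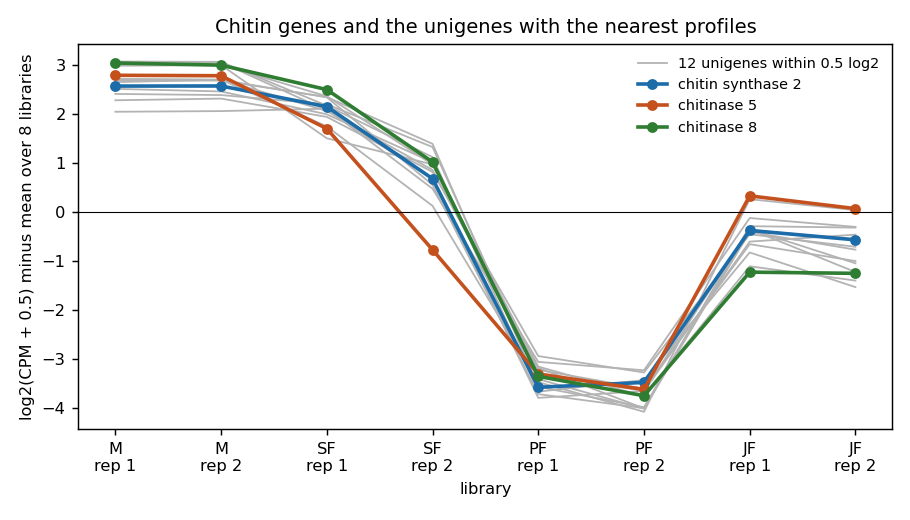
Profiles of the 3 chitin genes (coloured) and of the 12 unigenes within 0.5 log2 of their mean profile (grey) over the 8 libraries, as log2(CPM + 0.5) minus the mean over libraries. Of the 12, 10 follow the order M, SF, JF and PF from high to low without overlap, against 2.17% of all tested unigenes. Likeness to the mean profile, by which the 12 were chosen, favours this order. Chitinase 5 is the lowest of the chitin genes in SF replicate 2.

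The unigenes nearest to the chitin genes were also sought without the sexual females, so that the SF libraries played no part in the choice. Over the 6 libraries of M, PF and JF, the 100 nearest unigenes had RMS differences of 0.18 to 0.92 and included all 12 unigenes named above as nearest over 8 libraries. Of these 100, 90 were higher in SF replicate 1 than in SF replicate 2, against 48.6% of the 10719 tested unigenes outside the 100 and the chitin genes. At least 2-fold higher were 45 of the 100, against 4.11% of the others. Their median log2 ratio was 0.97, against -0.01 for the others, and the ratios of the 100 ranged from -1.07 to 3.18. Lists around other male-biased genes, chosen after the data were seen, leaned the same way. The 100 unigenes nearest to Doublesex2 in the same 6 libraries, of which 17 were shared, had a median of 0.89, and 82 of them were higher in SF replicate 1. For the 100 nearest to laminin subunit gamma-3, a basement membrane gene, with 0 shared, the median was 0.52 and 79 were higher in SF replicate 1. Doublesex2 and laminin subunit gamma-3 themselves had log2 ratios of only 0.04 and 0.19, with Doublesex2 at 4.03 and 3.91 CPM in SF. Whether the 2 SF pools differed in age, moult or reproductive state was not tested.

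**Figure D5:**
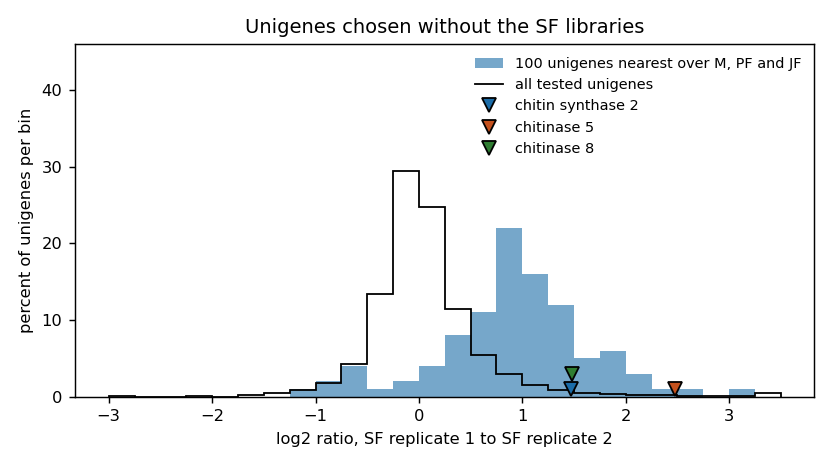
Percent of unigenes by log2 ratio of SF replicate 1 to SF replicate 2, for the 100 unigenes nearest to the chitin genes over the M, PF and JF libraries (filled) and for all tested unigenes (line), with values beyond the ends put in the end bins. The filled distribution is centred near its median of 0.97, and triangles mark the ratios of the chitin genes (1.47, 2.48 and 1.48).

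No other gene of chitin metabolism is annotated in the tables used here, so the rest of the pathway was not analysed here. The remaining male-biased candidates of the study are the only other named unigenes, and they were chosen from these libraries, so their counts are no independent evidence. Of its 6 peptidase genes, which encode trypsins and a serine protease, 2 rose in SF vs PF and 0 fell, where 9.98% of all tested unigenes rose and 4.84% fell. One was the serine protease ami-like gene, at a log2 fold change of 5.70 (edgeR adjusted p = 0.00307). The other, Cluster-5789.11655, is named trypsin alpha-like and had 3.67 (edgeR adjusted p = 0.00194). Both also rose in SF vs JF, by 2.02 (edgeR adjusted p = 0.0205) and 2.23 (edgeR adjusted p = 0.00247) on the log2 scale, while 1 of the 6 fell, where 19.0% of all tested unigenes rose and 18.6% fell. The share of peptidase genes that fell is thus near that of all unigenes. Without SF replicate 1, JF replicate 1 or JF replicate 2 only 1 peptidase gene was called higher in SF than in JF. In PF vs JF, 4 of the 6 fell and 0 rose, where 21.6% of all tested unigenes fell and 17.2% rose. The trypsin alpha-like gene differed from the mean profile of the chitin genes by 0.70. It had 742 and 751 CPM in M, 541 and 239 CPM in SF, 29.8 and 31.4 CPM in PF, and 85.2 and 81.1 CPM in JF. The other 4 peptidase genes were at RMS differences of 1.41 to 2.31. The nearest of them, putative trypsin-7 (Cluster-5789.3677), had 53.2 and 18.3 CPM in SF against 63.2 and 67.9 CPM in JF, so both SF libraries were below both of JF, but it was not called.

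Among the candidates are also 25 uncharacterized genes, of which 17 were listed in the tables and 8 were not analysed here. Of these 17, 10 rose and 2 fell in SF vs PF, where 9.98% of all tested unigenes rose and 4.84% fell, and their median log2 fold change was 1.82, against 0.02 over all. In SF vs JF, 11 rose and 3 fell, where 19.0% of all rose and 18.6% fell, and the median was 2.50, against 0.08 over all. In PF vs JF, 4 rose and 5 fell, which is near the 17.2% and 21.6% of all tested unigenes that did so, and the median was 0.10, against -0.08 over all. Not all of the 17 were highest in males in these libraries. In M vs SF, Cluster-5789.11844 had a log2 fold change of -6.39 (standard error 1.05) and Cluster-5789.11654 had -0.61 (standard error 0.68). Both were among those that rose, by 4.68 and 7.22 in SF vs PF and by 8.04 and 8.30 in SF vs JF. The chitin genes had medians of 5.23 in SF vs PF, 2.08 in SF vs JF and -3.15 in PF vs JF. Doublesex2, a transcription factor of sexual differentiation, had a log2 fold change of -0.23 in SF vs PF (edgeR adjusted p = 0.569). Laminin subunit gamma-3 had -0.67 (edgeR adjusted p = 0.00701), under the limit on size. Their profiles lay 1.97 and 2.06 from the mean of the chitin genes.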

How the data were processed

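The authors filtered the reads for quality and adapter sequence before assembly with Trinity. The deposited values are estimated counts per unigene, unscaled between libraries. The sources used here name neither aligner nor counter. Estimated counts were rounded to whole numbers. Main results came from R 4.3.3 with edgeR 4.0.16 and limma 3.58.1, using robust quasi-likelihood, TMM scaling and the filterByExpr filter by stage, in 1 fit of all 8 libraries with 4 residual degrees of freedom. Standard errors were obtained by dividing the log2 fold change by the root of its F statistic. Tests and likeness were run on simulated data only to check that planted changes and profiles were recovered. The stages simulated for the tests all had the same spread, unlike the SF libraries here. This check therefore does not show how the tests behave on these data. The genes, lists and rules were chosen with earlier results of these data known. Named were the 3 genes, the other candidates of the study that are listed, and, among unnamed unigenes, the 2 nearest and the 2 farthest. The alternatives were other scalings, filters, tools (DESeq2 1.42.0), pseudocounts, limits and measures of likeness, the replicate number as a block, and each library left out. The comparison with unigenes near Doublesex2 and laminin was added after the data were seen. The qPCR data were not used.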

Additional observations from a re-analysis of the deposited data

How the results depend on the processing

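The calls of chitin synthase 2 and chitinase 8 in SF vs PF and of all 3 genes in PF vs JF held under every alternative. With single libraries left out, the log2 fold change of chitinase 5 in SF vs PF ranged from 2.78 to 5.22. That of chitin synthase 2 in SF vs JF ranged from 1.28 to 2.71. For chitinase 5 in SF vs JF it ranged from -0.86 without SF replicate 1 to 1.58 without SF replicate 2. The value of -0.86 is under the limit on size and was not a call. Where a stage was left with 1 library, it was assumed to vary like the others. The SF replicates do not bear this out, being 2.78- to 5.59-fold apart in these genes, against at most 1.33-fold in the other stages. Calls made without an SF library leave out that spread, so they do not show that the comparisons with SF are robust. The fit of the 4 compared libraries gave 4.46 for chitinase 5 in SF vs PF, no longer called, and 513 up-regulated and 196 down-regulated unigenes against 1080 and 524. Its edgeR adjusted p in SF vs PF was 0.0351 for chitin synthase 2 and 0.0347 for chitinase 8, against 0.00195 and 0.00185 with all 8 libraries. For chitin synthase 2 in SF vs JF it was 0.0370, against 0.00874. The main fit shares 1 estimate of the spread among stages. In M vs PF the standard error of chitin synthase 2 was 0.09 with 4 libraries, against 0.55. In M vs JF the fit of 4 libraries gave 3.19 for chitin synthase 2 and 4.42 for chitinase 8.

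Other scalings shifted values little. DESeq2 size factors gave 6.28 for chitin synthase 2 in M vs PF and 4.38 for chitinase 8 in M vs JF, library size only gave 6.11 and 4.22, and DESeq2 on all 8 libraries gave 6.28 and 4.38. With libraries left out, M vs JF for chitinase 8 ranged from 4.26 to 4.40, and M vs PF from 6.15 to 6.54 for chitinase 5 and from 6.45 to 6.93 for chitinase 8. With library size only, the log2 ratios of the SF replicates were 1.36 for chitin synthase 2, 2.36 for chitinase 5 and 1.36 for chitinase 8.

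The number of unigenes within 0.5 log2 of the mean profile was 12. It ranged from 10 to 24 with single libraries left out (chosen after seeing the data), with 24 without SF replicate 2 and 21 without JF replicate 2. A limit of 0.75 log2 gave 57, and the 12 unigenes with the highest Pearson correlation shared only 4 with the list. The median SF ratio of the 100 nearest unigenes stayed between 0.70 and 1.01.

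Replicate numbers name no shared culture in the labels. The log2 differences between replicate 1 and replicate 2 were correlated between stages over the tested unigenes. These correlations were from -0.04 to 0.14, and the highest was that of SF with JF. With the replicate block no call of the 3 genes changed, SF vs PF had 1012 up-regulated and 499 down-regulated unigenes, and chitinase 5 had 4.22 in SF vs PF (edgeR adjusted p = 0.0202) and 0.50 in SF vs JF (edgeR adjusted p = 0.55). With 2 libraries per stage, the spread between the SF pools, not counting, limits the values of the comparisons with SF.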
